A study of Mus musculus with 9 samples.

Results

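A set of 10 genes of arterial and venous specification was followed across whole mouse kidneys collected at E15.5, namely the arterial connexins *Gja4* and *Gja5*, the SoxF transcription factors *Sox7*, *Sox17* and *Sox18*, the chemokine *Cxcl12* and its receptor *Cxcr4*, the peptide *Apln* and its receptor *Aplnr*, and the venous transcription factor *Nr2f2*. They were chosen by name, and all 10 are present in the deposited table of 24138 loci, each at a separate locus. None differed between genotypes at an adjusted p under 0.05. Their levels in the 3 genotypes lay within 0.824-fold and 1.16-fold of each other by the ratio of means. Patterns without overlap between libraries were seen, *Gja5* being lower in every Foxd1GC/+ library than in every Cre-free library, and *Apln* being higher in every homozygous library than in every heterozygous library. Groups without overlap in either direction were found for 1 of the 10 members in each comparison, against 9.56% of all genes between homozygous and heterozygous kidneys, 3.61% between homozygous and Cre-free kidneys and 3.81% between heterozygous and Cre-free kidneys. The count for *Apln* is that of the background. Those for *Gja5* rest on 1 member and use the same Cre-free libraries, so they do not set the members apart from all genes. The share of all genes lower in every Foxd1GC/+ library than in every Cre-free library was not counted. Relative to pan-endothelial markers of the same library, 0 members were without overlap.

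Bulk RNA-seq was performed on 9 libraries, 3 from each genotype. Foxd1GC/+;Ntn1fl/fl kidneys (homozygous, MUT) and Foxd1GC/+;Ntn1fl/+ kidneys (heterozygous, HET) carry a GFP-Cre knock-in that replaces the function of 1 *Foxd1* allele and recombines floxed *Ntn1* in Foxd1+ stromal progenitors and their descendants, while Ntn1fl/fl kidneys (wild type, WT) carry floxed *Ntn1* without Cre. The kidneys came from 3 crosses of Ntn1fl/fl with Foxd1GC/+;Ntn1fl/+ mice, embryos of both sexes were used in the study, and no untreated strain without a floxed allele is among the samples. Endothelial cells do not descend from the Foxd1+ lineage for the most part, and their RNA is read here within that of the whole organ.

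Endothelial cells become arterial or venous during development. Notch signalling and SoxF factors promote the arterial programme, which includes the gap junction proteins encoded by *Gja4* (connexin 37) and *Gja5* (connexin 40). *Nr2f2* encodes COUP-TFII, which represses Notch signalling in venous endothelium. Cxcl12 attracts cells that carry Cxcr4 and takes part in arterial assembly, and apelin, the product of *Apln*, is made by sprouting endothelium and acts on Aplnr, which marks veins and angiogenic endothelium. Several of these genes are also used outside vessels in the kidney, *Nr2f2* and *Cxcl12* in stroma and *Gja5* in renin-producing cells.

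Levels are FPKM, fragments per kilobase of transcript scaled to the size of the library, and where 3 values follow each other they are those of libraries 1, 2 and 3 of a genotype. *Ntn1*, the targeted gene, was at 17.8 to 28.9 FPKM in the WT libraries and at no more than 16.5 FPKM in any library with Cre, where HET and MUT overlapped. *Foxd1*, which carries the knock-in, was at 25.8 to 33.7 FPKM in the WT libraries and at 20.2 to 24.8 FPKM in those with Cre. The scaling leaves the read depth unknown, so counting errors cannot be stated. Library sums ran from 453753 to 545598 FPKM, and a rough depth read from the lowest values ran from 0.564 (WT-2) to 1.30 (MUT-1) relative to WT-1. Of 12 pan-endothelial markers such as *Pecam1*, *Cdh5* and *Kdr*, all were above 1 FPKM on average, and their summed level was 386 to 403 FPKM in WT, 364 to 410 in HET and 382 to 403 in MUT. HET-2 stood apart through 4 liver markers, which summed to 592 FPKM there and to between 23.7 and 45.8 FPKM in the other 8 libraries. *Xist* was at 187 FPKM in HET-3 and 173 in MUT-1 and at most 1.25 FPKM elsewhere, while the Y-linked *Ddx3y* was at 0.305 and 0 FPKM in those libraries, which mark them as female. In whole kidney, fewer endothelial cells and less RNA per endothelial cell cannot be told apart.

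Because FPKM are given per length, levels can be set side by side between genes. *Cxcl12* was the highest member, with a mean of 85.7 FPKM over the 9 libraries, followed by *Nr2f2* at 75.4, *Aplnr* at 44.2, *Sox18* at 33.6 and *Cxcr4* at 26.3 FPKM. *Gja4* had a mean of 10.9 FPKM, *Gja5* of 8.26, *Sox17* of 7.78, *Sox7* of 6.84 and *Apln* of 6.16 FPKM. Both stromally shared genes thus stood at the top, and *Sox18* was the most abundant SoxF gene, 3.64 to 5.48 times the FPKM of *Sox17* within a library. The ranges of neighbours in this order were separate between *Nr2f2* and *Aplnr*, between *Aplnr* and *Sox18*, and between *Cxcr4* and *Gja4*. *Sox18* exceeded *Cxcr4* in each of the 9 libraries although their ranges overlapped. *Gja4* exceeded *Gja5* in 8, *Cxcl12* exceeded *Nr2f2*, *Sox17* exceeded *Sox7* and *Sox7* exceeded *Apln* in 7, and *Gja5* exceeded *Sox17* in 6 of the 9 libraries, so these neighbours were not distinguished in every library. Over the 9 libraries the coefficient of variation of a member was between 9.07% (*Cxcr4*) and 14.7% (*Gja4*).

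**Figure D1:**
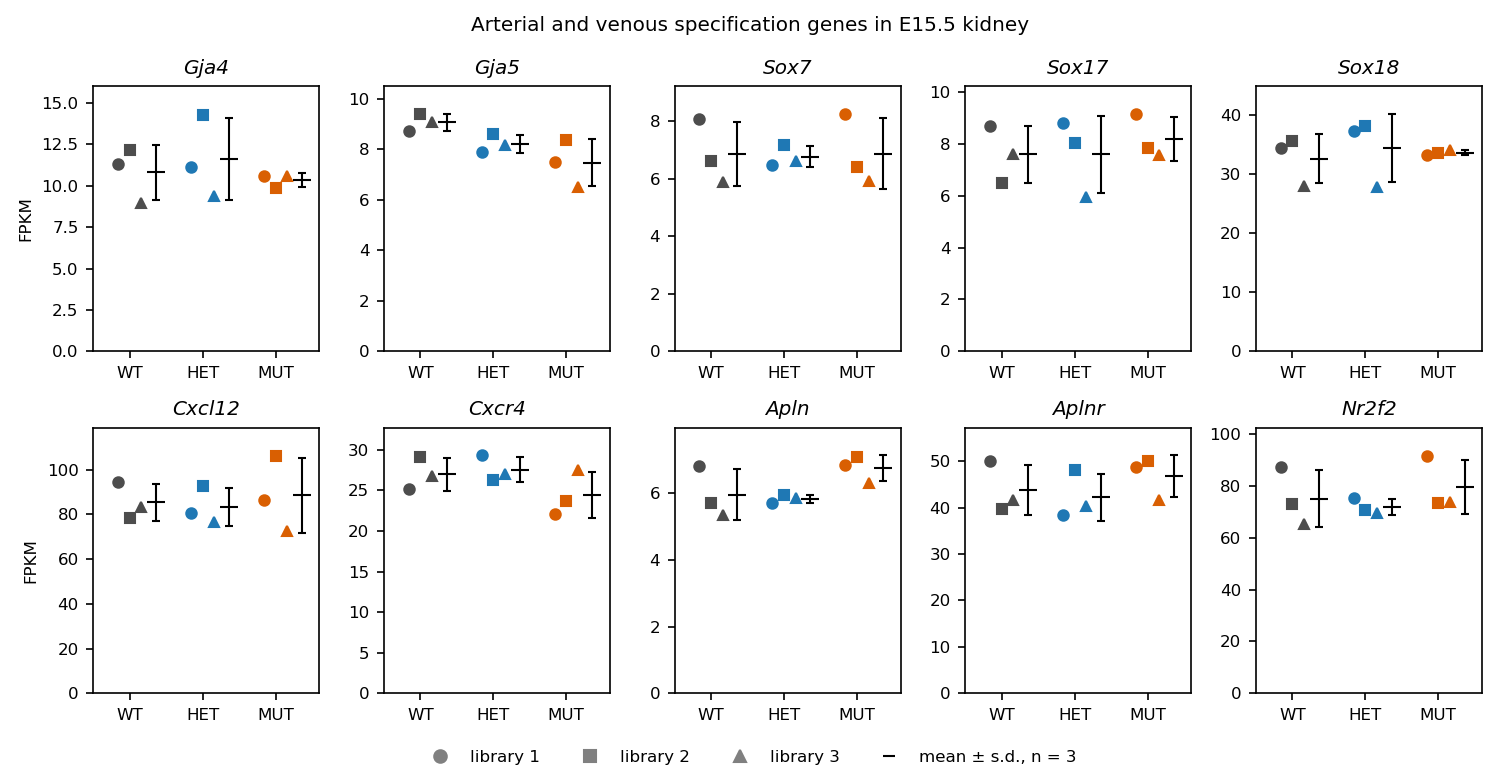
FPKM of the 10 genes (y axis, starting at 0) in WT, HET and MUT kidneys (x axis), with a symbol for each library by its number and a black bar for the mean±s.d. of 3 libraries. The 6 HET and MUT libraries of *Gja5* lie below the 3 WT libraries, the 3 MUT libraries of *Apln* lie above the 3 HET libraries, and the other panels overlap.

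*Gja5*, on chromosome 3 from 97032401 to 97053634 of mm10 as the table gives it, lies on the plus strand and within a longer gene model in GENCODE M21. The promoter windows of both connexins are shown because the *Gja5* libraries of WT did not overlap those of either Cre genotype, whereas those of *Gja4*, the other arterial connexin, did. They are taken from RefSeq on GRCm38.p6 and run from 250 bases before to 50 bases after the gene's start, at chr3:97032152-97032451 on the plus strand and chr4:127313990-127314289 on the minus strand. Capitals mark the letters ACAAT, the core recognised by SOX factors, on either strand.
Gja5: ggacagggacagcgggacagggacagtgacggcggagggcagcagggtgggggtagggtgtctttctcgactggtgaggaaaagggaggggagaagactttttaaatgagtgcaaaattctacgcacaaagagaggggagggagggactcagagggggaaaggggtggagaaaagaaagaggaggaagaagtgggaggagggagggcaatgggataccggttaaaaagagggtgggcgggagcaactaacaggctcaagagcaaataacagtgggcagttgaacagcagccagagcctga
Gja4: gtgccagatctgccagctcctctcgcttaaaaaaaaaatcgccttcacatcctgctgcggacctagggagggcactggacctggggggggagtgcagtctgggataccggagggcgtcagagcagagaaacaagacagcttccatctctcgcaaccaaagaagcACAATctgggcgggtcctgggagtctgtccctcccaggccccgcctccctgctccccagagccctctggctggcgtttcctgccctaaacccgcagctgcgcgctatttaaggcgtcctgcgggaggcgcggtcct
The *Gja4* window holds ACAAT 1 time, at position -86 from the start, and the *Gja5* window holds it 0 times. Of all 32851 promoter windows of this length, 31.0% hold these letters on either strand, so a match is a description only. The letters TGGGAA (the core bound by RBPJ, the nuclear effector of Notch) and ACGTG (the core of hypoxia response elements), held by 25.6% and 19.6% of all windows on either strand, are in neither connexin window. A window was given for 6 of the 10 members.

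The FPKM of *Gja5* was 8.73, 9.41 and 9.07 in WT, 7.91, 8.61 and 8.18 in HET, and 7.51, 8.38 and 6.52 in MUT. Every WT library lay above every HET and every MUT library, and HET and MUT overlapped. WT differs from both Cre genotypes in the *Foxd1* allele, in GFP-Cre and in recombined *Ntn1*, and these cannot be told apart here. The mean was 9.07±0.341 FPKM in WT, 8.23±0.353 in HET and 7.47±0.930 in MUT (mean±s.d., n=3 each). On the log2(FPKM + 1) scale, where differences of low genes are understated, *Gja5* was 0.25 lower in MUT than in WT (log2 difference -0.25, standard error 0.12, 95% interval -0.53 to 0.02, Benjamini-Hochberg adjusted p = 1.00, limma). The log2 difference between HET and WT was -0.13 (95% interval -0.36 to 0.11, adjusted p = 0.999 from limma). Both comparisons use the same WT libraries. By exact permutation of libraries p was 0.1 in both, which is the lower limit for groups of 3. Non-overlapping groups with the lower level in the Cre genotype were found in 1.87% of 12885 genes between MUT and WT and in 1.36% of 12911 genes between HET and WT, and *Gja5* was the only member among them in either comparison. Quantile rescaling, in which every library is given the same distribution, made the HET and WT libraries of *Gja5* overlap.

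*Gja5* is also the connexin of renin-producing cells, and both renin cell markers were lower in MUT as well. The renin locus carries the joined name of *Ren1* and *Ren2*. It had 149, 137 and 136 FPKM in WT, 108, 115 and 69.4 FPKM in HET, and 75.2, 106 and 64.3 FPKM in MUT. *Akr1b7*, an aldo-keto reductase of renin-lineage cells, had 14.5, 23.4 and 20.6 FPKM in WT, 16.01, 14.8 and 12.4 FPKM in HET and 9.19, 9.67 and 11.5 FPKM in MUT. The renin locus was thus lower in each Cre library than in each WT library, and *Akr1b7* lower in each MUT library than in the other 6. Over all genes, 1.87% were lower without overlap in MUT than in WT, 1.36% in HET than in WT and 4.78% in MUT than in HET. The shares with the joint patterns of these markers were not counted, and both markers were named after their values were seen. The log2 differences of the renin locus and *Akr1b7* between MUT and WT were -0.81 and -0.86 (adjusted p = 1.00 from limma for each). Their part in the level of *Gja5* was not tested.

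**Figure D2:**
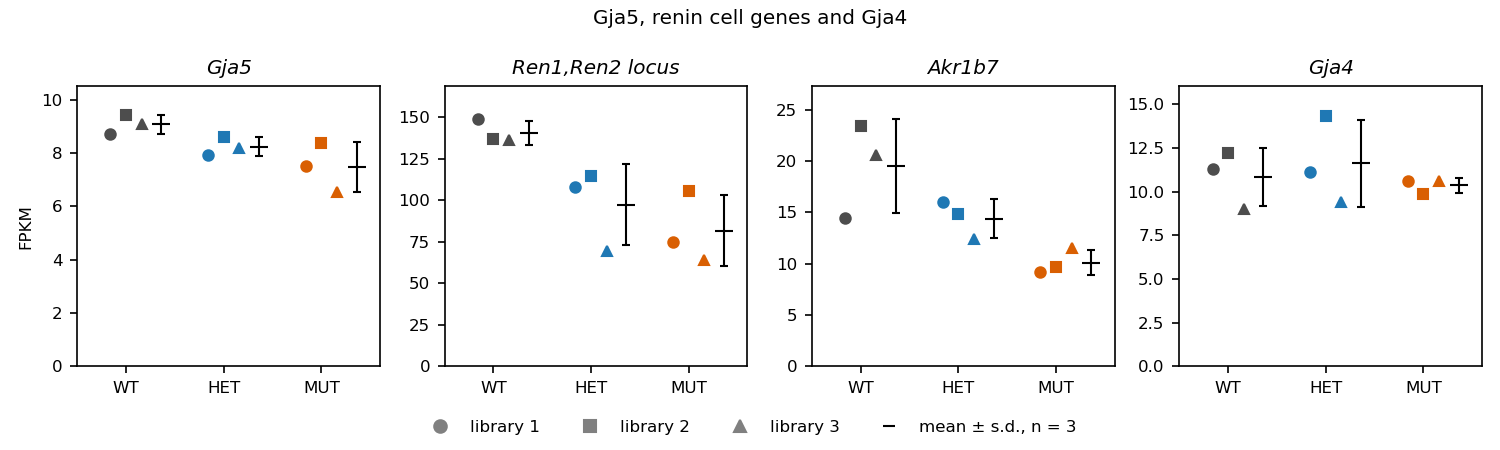
FPKM (y axis, starting at 0) of *Gja5*, the *Ren1* and *Ren2* locus, *Akr1b7* and *Gja4* in WT, HET and MUT kidneys (x axis), with a symbol for each library and the mean±s.d. of 3. WT libraries lie above all HET and MUT libraries for *Gja5* and the renin locus, while *Gja4* overlaps between genotypes.

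*Gja4*, on chromosome 4 from 127311419 to 127314039 (minus strand, 2 exons), had 11.3, 12.2 and 8.98 FPKM in WT, 11.1, 14.3 and 9.39 FPKM in HET, and 10.6, 9.88 and 10.6 FPKM in MUT. The genotypes overlapped, and HET-2, the library with liver markers, was the highest. The log2 difference between MUT and HET was -0.13 with all libraries (95% interval -0.45 to 0.19) and 0.02 without HET-2. Within a library *Gja5* had 0.601 to 1.01 times the FPKM of *Gja4*. The other connexins of the vessel wall, *Gja1* and *Gjc1*, differed by -0.15 and 0.05 between MUT and HET and by -0.14 and 0.05 between MUT and WT on the log2 scale, with overlapping libraries.

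*Apln*, on chromosome X from 48025145 to 48034852 (minus strand, 3 exons), had an FPKM of 6.80, 5.68 and 5.34 in WT, of 5.70, 5.93 and 5.85 in HET, and of 6.83, 7.06 and 6.30 in MUT. All 3 MUT libraries lay above all 3 HET libraries, whereas WT-1 lay among the MUT libraries. Means of *Apln* were 5.82±0.118 FPKM (HET) and 6.73±0.388 FPKM (MUT), and MUT minus HET was 0.18 on the log2 scale (standard error 0.10, 95% interval -0.05 to 0.40, adjusted p = 0.776 from limma). By exact permutation p was 0.1, again the lower limit. Non-overlapping groups with the higher level in MUT were found in 4.78% of 12898 genes and with the lower level in MUT likewise in 4.78%, and *Apln* was the only member in either. The gene is X-linked, and the female libraries HET-3 and MUT-1, at 5.85 and 6.83 FPKM, were neither the lowest nor the highest of their genotypes.

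*Aplnr*, on chromosome 2 from 85136359 to 85139923 (plus strand), had 49.9, 39.6 and 41.7 FPKM in WT, 38.5, 48.0 and 40.3 FPKM in HET and 48.6, 49.9 and 41.5 FPKM in MUT. The genotypes overlapped, and the log2 difference between MUT and HET was 0.14 (95% interval -0.13 to 0.42). In the 9 libraries *Aplnr* had 6.59 to 8.10 times the FPKM of its ligand gene *Apln*. *Apela*, which encodes the other ligand of Aplnr, had 15.4, 16.6 and 19.1 FPKM in WT, 21.2, 20.3 and 17.6 FPKM in HET and 17.9, 29.7 and 20.3 FPKM in MUT. Its highest library was MUT-2, which was also the highest for *Apln* and *Aplnr*, and its log2 difference of 0.36 between MUT and WT had a 95% interval from -0.04 to 0.77 with overlapping libraries.

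*Cxcl12*, on chromosome 6 from 117168534 to 117181368 (plus strand), had 94.6, 78.4 and 83.1 FPKM in WT, 80.6, 92.6 and 76.5 FPKM in HET and 86.5, 106 and 72.7 FPKM in MUT. MUT held both the highest and the lowest library, so that its spread (88.4±16.8 FPKM) exceeded the difference from either other genotype. *Cxcr4*, on chromosome 1 from 128588198 to 128592299 (minus strand, 2 exons), had 25.1, 29.1 and 26.7 FPKM in WT, 29.3, 26.3 and 27.0 FPKM in HET and 22.0, 23.7 and 27.5 FPKM in MUT. MUT-1 and MUT-2 were the lowest libraries for the receptor, whereas MUT-3 was exceeded by WT-2 and HET-1 only. The log2 difference of *Cxcr4* between MUT and HET was -0.17 (95% interval -0.42 to 0.08) and that of *Cxcl12* was 0.07 (95% interval -0.26 to 0.41). *Ackr3*, the scavenger receptor of Cxcl12, had a mean of 60.3 FPKM in WT, 55.8 in HET and 53.2 in MUT with overlapping libraries. *Cxcr4* is also a leukocyte gene, and 5 leukocyte markers summed to 20.8 to 26.7 FPKM in WT, 27.7 to 32.1 in HET and 22.2 to 28.4 in MUT. The leukocyte sum was 28.4 FPKM in both MUT-2 and MUT-3, where *Cxcr4* was at 23.7 and 27.5 FPKM. The sum of 3 nephron progenitor markers was highest in MUT-3, HET-1 and WT-2, which were also the highest libraries for *Cxcr4*. At the low end the orders differed, WT-3 having the lowest sum of these markers and MUT-1 the lowest *Cxcr4*. These markers were compared with *Cxcr4* after its values were seen. The part of either cell type in the level of *Cxcr4* was not tested.

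The SoxF genes showed no order of genotypes. *Sox7*, on chromosome 14 from 63943705 to 63950732 (plus strand, 2 exons), had 8.08, 6.62 and 5.90 FPKM in WT, 6.50, 7.18 and 6.62 FPKM in HET and 8.26, 6.43 and 5.94 FPKM in MUT. *Sox17*, on chromosome 1 from 4490927 to 4497354 (minus strand), had 8.69, 6.49 and 7.60 FPKM in WT, 8.78, 8.04 and 5.93 FPKM in HET and 9.13, 7.85 and 7.56 FPKM in MUT. *Sox18*, on chromosome 2 from 181669836 to 181671640 (minus strand, 2 exons), had 34.4, 35.5 and 27.9 FPKM in WT, 37.3, 38.2 and 27.8 FPKM in HET and 33.2, 33.6 and 34.2 FPKM in MUT. WT-3 and HET-3 were the lowest for *Sox18*, and the MUT libraries lay close together between the extremes of the other genotypes. The log2 differences between MUT and HET were 0.01, 0.11 and -0.02 for *Sox7*, *Sox17* and *Sox18*, and their 95% intervals ran from -0.31 to 0.43 over all of them. An annotated transcript on the opposite strand overlaps an exon of *Sox17*, and the sources used here do not state whether fragments were assigned by strand.

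*Nr2f2*, the venous member, lies on the minus strand of chromosome 7. The locus in the deposited table, from 70351949 to 70411146, runs beyond the GENCODE M21 gene, which ends at 70366735. It overlaps an exon of a transcript on the opposite strand that extends past it, and holds a long noncoding RNA on the same strand. It had 87.0, 72.9 and 65.2 FPKM in WT, 75.4, 70.6 and 69.3 FPKM in HET and 91.5, 73.1 and 73.6 FPKM in MUT. MUT-1 and WT-1 were the highest libraries, and the remaining 7 lay between 65.2 and 75.4 FPKM. The log2 difference was 0.14 between MUT and HET (95% interval -0.13 to 0.40) and 0.08 between MUT and WT (95% interval -0.26 to 0.42). Its paralog *Nr2f1* had a mean of 29.9 FPKM in WT, 26.4 in HET and 30.0 in MUT, and *Nr2f2* had 2.41 to 2.84 times its FPKM within a library.

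Between MUT and HET, 6 of the 10 members were higher in MUT and 4 lower, at a median log2 difference of 0.04, where the median over all genes tested was -0.01. Between MUT and WT, 7 were higher and 3 lower (median 0.04, all genes 0.00), and between HET and WT, 3 were higher and 7 lower (median -0.01, all genes 0.00). In each comparison 0 members had an adjusted p under 0.05 or an unadjusted p under 0.05 (limma). Over all genes, 0% had an adjusted p under 0.05 in each of the 3 comparisons, and an unadjusted p under 0.05 was found for 5.56% (717 genes) between MUT and HET, 1.14% (147 genes) between MUT and WT and 1.45% (187 genes) between HET and WT. The 95% intervals bound what these libraries can show. They reached at most from -0.45 to 0.43 for any member between MUT and HET, from -0.53 to 0.44 between MUT and WT and from -0.36 to 0.45 between HET and WT, so that for no member did an interval include a change of 1.5-fold or more upwards on the FPKM + 1 scale.

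**Figure D3:**
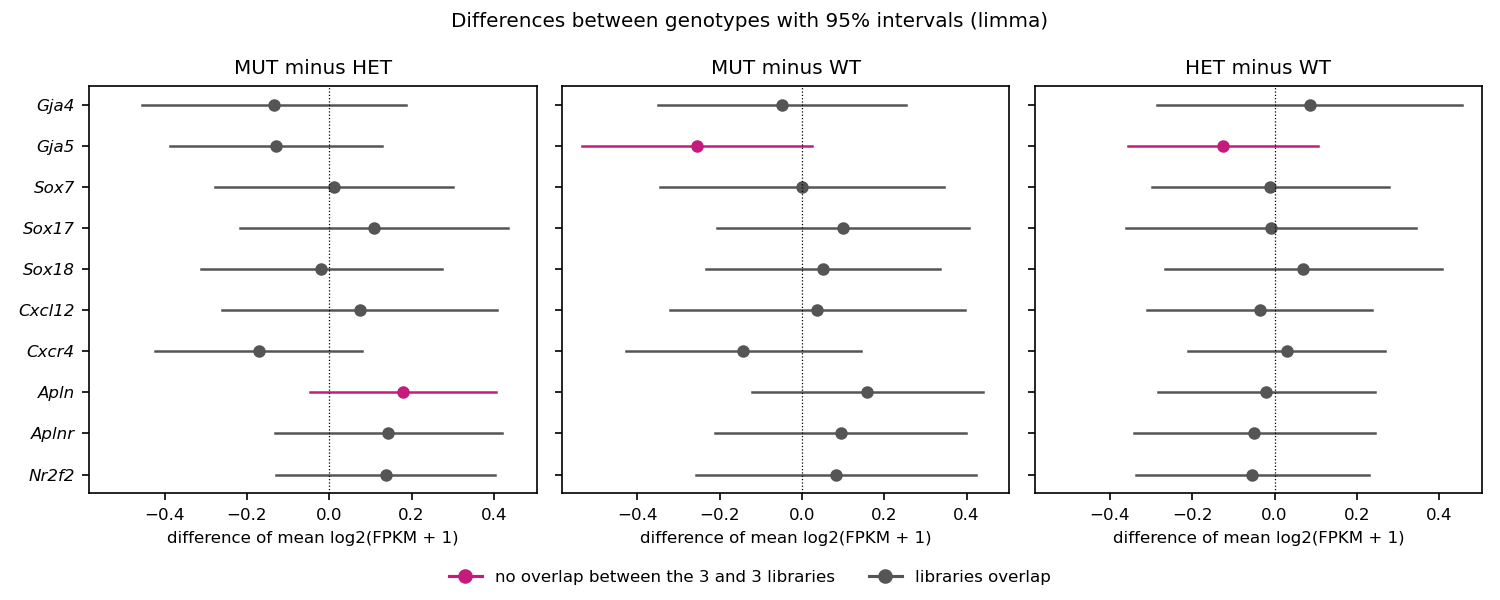
Difference of the mean log2(FPKM + 1) (x axis) of each gene (y axis) between MUT and HET, MUT and WT, and HET and WT, with 95% intervals from limma. Each interval includes 0, and the coloured points mark *Apln* (MUT against HET) and *Gja5* (MUT and HET against WT), whose libraries did not overlap.

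The members did not vary as 1 block across libraries. MUT-1 and WT-1 were the highest libraries for *Sox7* and *Nr2f2*, MUT-2 was the highest for *Cxcl12*, *Apln* and *Aplnr*, and HET-2 the highest for *Gja4* and *Sox18*. The mean log2(FPKM + 1) of the 12 pan-endothelial markers was also highest in MUT-1 (4.81) and WT-1 (4.79). It was 4.59 to 4.71 in the other 7 libraries. Single markers differed in their highest library, which was MUT-1 for 3 of the 12, WT-1 for 1, HET-2 for 4 and another library for the rest. *Emcn* was lowest in MUT-1 and WT-1, at 55.8 and 56.0 FPKM. The summed FPKM of the 12 markers was highest in HET-2, at 410 against 403 in both MUT-1 and WT-1. MUT-1 and WT-1 had the lowest FPKM sums over all genes, 457192 and 453753 against 490206 or more. The part of library composition in these levels was not tested. Relative to the pan-endothelial mean of the same library, 0 members separated the genotypes without overlap in any of the 3 comparisons. For *Gja5* this ratio was lower by 0.25 in MUT than in WT on the log2 scale (difference -0.25, exact permutation test p = 0.2), with WT-1, at -1.51, below MUT-2, at -1.44. Between HET and WT the *Gja5* ratio differed by -0.06 (exact permutation test p = 0.4), where the level had differed by -0.13. For *Apln* it was higher by 0.12 in MUT than in HET (exact permutation test p = 0.2).

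**Figure D4:**
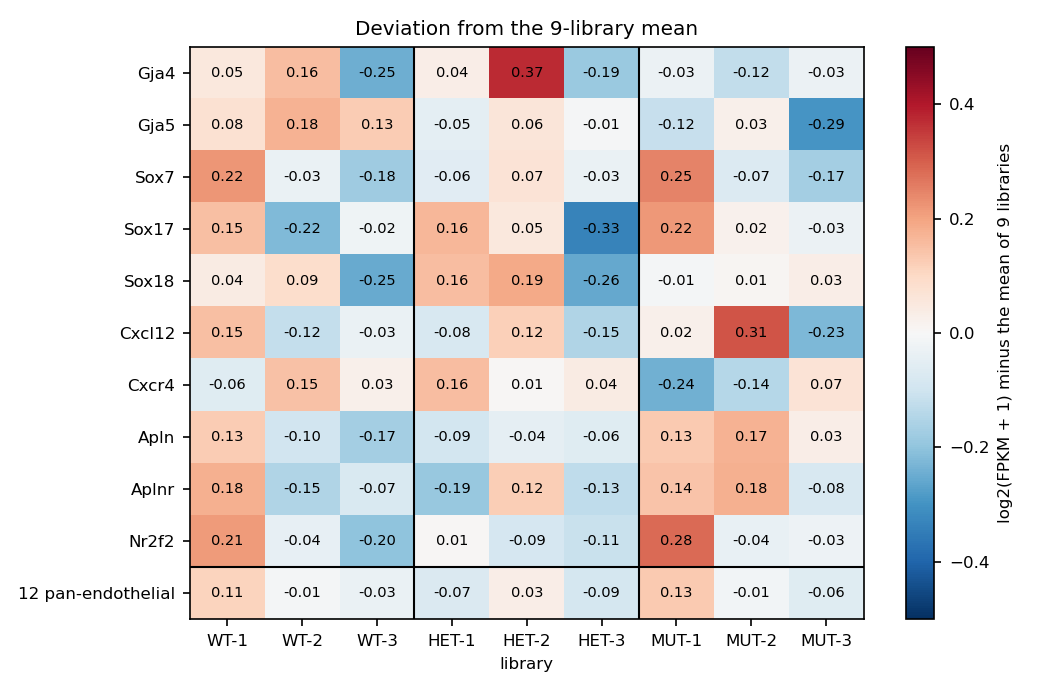
Deviation of log2(FPKM + 1) from the gene's mean of 9 libraries (colour and printed value) for each gene and for the mean of 12 pan-endothelial markers (rows) in each library (columns). *Gja5* is positive in the 3 WT libraries, *Sox7* and *Nr2f2* are highest in WT-1 and MUT-1, and *Gja4* is highest in HET-2.

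Other genes of arterial and venous identity, listed by name, were read in the same way. Of 14 arterial genes, 13 were above 1 FPKM and tested. Between MUT and HET, 7 had the higher level in MUT and 6 the lower, 0 being at an adjusted p under 0.05 (limma) and a median log2 difference of 0.06. Of the 13, 3 were higher and 2 lower without overlap, where the share over all genes was 4.78% in each direction, and 4 had an unadjusted p under 0.05, where it was 5.56%. The list holds *Notch1*, *Unc5b* and *Hey1*, which the study had already reported as changed between MUT and HET from these same libraries. These genes are among those counted, so the counts do not set the arterial list apart from all genes. *Efnb2*, the ephrin ligand of arterial endothelium, differed by 0.34, the receptor *Notch1* by 0.41 and the netrin receptor *Unc5b* by 0.36, while *Hey1* and *Hey2*, transcriptional targets of Notch, differed by -0.28 and -0.19 (adjusted p = 0.776 for each from limma). Without MUT-1 the differences between MUT and HET were 0.22 for *Efnb2*, 0.20 for *Notch1* and 0.24 for *Unc5b*. The Notch ligand *Dll4* differed by -0.14, the semaphorin and VEGF co-receptor *Nrp1*, whose locus is joined with a microRNA, by -0.02 and the transcription factor *Mecom*, read at the higher of its 2 loci, by -0.16, all with overlapping libraries. Between MUT and WT, *Hey1* (-0.17) and *Mecom* (-0.30) were lower without overlap, as were 1.87% of all genes, and *Efnb2*, *Notch1* and *Unc5b* overlapped. Without MUT-2 these differences were -0.11 for *Hey1* and -0.17 for *Mecom*. Between HET and WT, 2 arterial genes were higher and 11 lower, with 0 non-overlapping.

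Of 8 venous and lymphatic genes, 4 were above 1 FPKM, and the defining markers *Prox1*, *Vwf*, *Selp* and *Ackr1* were at a mean below 1 FPKM and not tested. Between MUT and HET, 3 were higher and 1 lower, and between MUT and WT all 4 were higher, with 0 at an adjusted p under 0.05 (limma) and 0 non-overlapping in both. *Ephb4*, the receptor of Efnb2 on veins, differed by 0.21 between MUT and HET, the co-receptor *Nrp2* by 0.39, the VEGF-C receptor *Flt4* by 0.25 and the lymphatic receptor *Lyve1* by -0.22. *Nrp2* had 9.46 and 9.59 FPKM in MUT-1 and MUT-2 but 5.81 in MUT-3, which lay below HET-2 and HET-3. The pan-endothelial markers had a median log2 difference of -0.02 between MUT and HET, of 0.00 between MUT and WT and of -0.07 between HET and WT. Of them, *Flt1*, a VEGF receptor, was higher in MUT than in HET without overlap (0.38, and 0.18 without MUT-1), and *Pecam1*, an adhesion molecule, was lower in MUT than in WT without overlap (-0.15). Over all genes, 4.78% were higher in MUT than in HET without overlap, and 1.87% were lower in MUT than in WT without overlap. The share with the higher level in the first genotype was 1.74% between MUT and WT and 2.46% between HET and WT, where 0 pan-endothelial markers were higher without overlap.

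**Figure D5:**
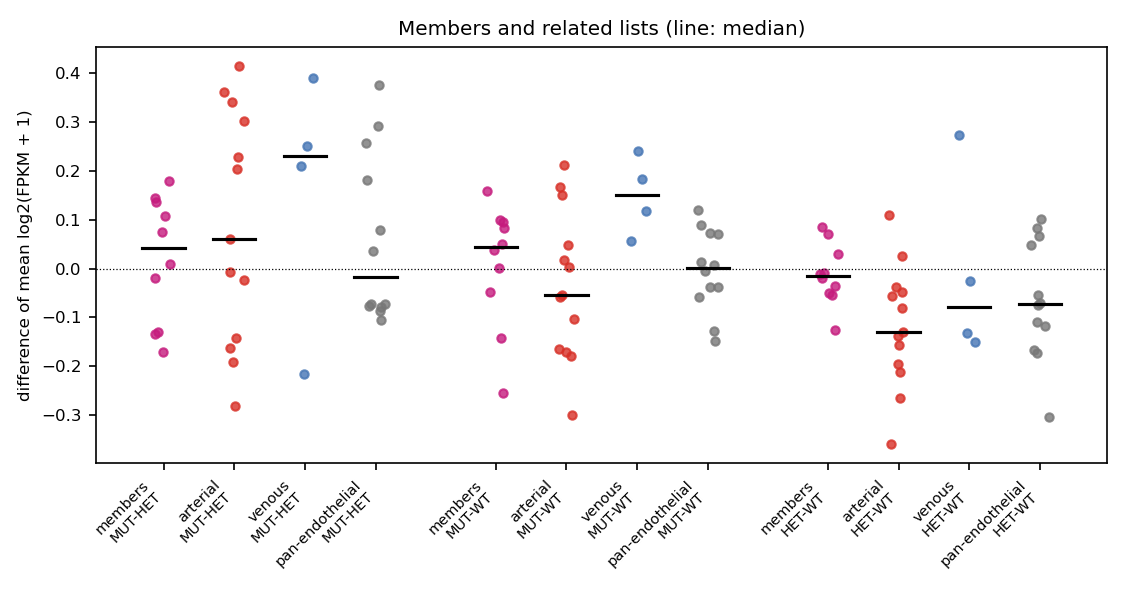
Difference of the mean log2(FPKM + 1) (y axis) of the 10 members, 13 arterial, 4 venous and lymphatic and 12 pan-endothelial genes (points) for each comparison (x axis), with a line at the median. The member medians are 0.04, 0.04 and -0.01, and the points of each list fall on both sides of 0 except those of the venous genes between MUT and WT.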

How the data were processed

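RNA of whole E15.5 kidneys was sequenced from TruSeq Stranded mRNA libraries. According to the submitters' processing notes and the study's methods, the authors aligned reads to mm10 with STAR, assembled transcripts with Cufflinks and computed the deposited FPKM with Cuffdiff. Tool versions and the annotation are not given in the sources used here. Libraries were grouped by their titles, and nothing else in the labels names a batch. The genotype means in the table were not used. From the deposited FPKM, log2(FPKM + 1) was compared with limma 3.58.1 in R 4.3.3 (eBayes with a trend, two-sided, Benjamini-Hochberg adjustment, threshold 0.05), using the 6 libraries of the genotypes compared and genes whose mean over them was 1 FPKM or more. The study's minimum of 5 FPKM is an alternative, and all 10 members have a mean above it. Exact permutation tests are two-sided, and 30 were made on levels (10 members, 3 comparisons) and 30 on ratios to pan-endothelial markers, with no adjustment. Kidneys of 1 genotype may share a litter, and p-values measure only the spread between these libraries. The study's text does not state that a replicate number marks a cross, so the number was not used as a block. The correlation of deviations was -0.0114 on average between same-numbered libraries (-0.274 to 0.557) and 0.00535 between differently numbered ones (-0.553 to 0.484). The members and lists were chosen with earlier results of these data known. Named genes are the members, partners and relatives fixed by name (among them *Dll4* and *Notch1*), the 4 highest of the arterial and of the venous and lymphatic list, the gene closest to each member, and library checks. *Unc5b*, *Flt1*, *Pecam1*, the renin cell genes and the markers named as examples or as below 1 FPKM fall outside that rule and were named after their values were seen. The fit was tested on simulated data. The alternatives were other pseudocounts, FPKM minimums, rescalings and fits, a GC correction and leaving out each library. Other steps used Python 3.11.15, numpy 2.4.6, pandas 2.3.3 and matplotlib 3.10.9.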

Additional observations from a re-analysis of the deposited data

How the results depend on the processing

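Across the alternatives, no member passed an adjusted p of 0.05 in any comparison, and the smallest adjusted p was 0.283 (limma). Of the 30 member differences, 11 kept their sign under all alternatives, among them those of *Gja5* in each comparison and of *Apln*, *Aplnr*, *Cxcr4* and *Nr2f2* between MUT and HET. Sizes were less stable than signs. Between MUT and HET the difference of *Nr2f2* was 0.032 without MUT-1, that of *Gja5* -0.046 without MUT-3, that of *Cxcr4* -0.10 without MUT-1 and that of *Aplnr* 0.081 without HET-1. Between MUT and WT that of *Sox17* was 0.0042 and that of *Aplnr* 0.028 without WT-2, that of *Cxcr4* -0.074 without MUT-1 and that of *Apln* 0.097 without WT-3. The number of genes called over the whole table was 0 under each alternative that kept all libraries, except for 1 gene between HET and WT at a pseudocount of 0.1. It was 0 to 2 between MUT and HET, 0 to 4 between MUT and WT and 0 to 3 between HET and WT when 1 library was left out. With the replicate number as a block, 0 genes were called in each comparison, and at an unadjusted p under 0.05 there were 519, 333 and 298 genes in place of 717, 147 and 187. For 2 of the 9 libraries the closest library of another genotype had the same number. The number of members with non-overlapping groups was 1 in each comparison and became 0 between HET and WT under quantile rescaling, and it was 2 to 3, 1 to 3 and 1 to 2 when 1 library was left out, where smaller groups overlap less often by construction. Over all genes the share was 9.56%, 3.61% and 3.81%, was 4.61% between HET and WT under quantile rescaling, and was 13.0% to 35.0%, 6.57% to 19.3% and 5.88% to 29.7% when 1 library was left out. For the related genes, leaving out libraries was chosen after seeing the data.

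Under quantile rescaling the log2 difference turned to -0.011 for *Sox7* and 0.0052 for *Sox18* between MUT and HET, and to 0.024 for *Sox7*, 0.014 for *Sox17* and 0.0092 for *Apln* between HET and WT, and under the GC correction to -0.014 for *Sox18* between MUT and WT. With the median of the pan-endothelial markers in place of their mean, the ratio to them turned to -0.041 for *Sox7* and -0.0030 for *Cxcl12* between MUT and WT, and to -0.024 for *Cxcl12*, -0.042 for *Nr2f2*, -0.0074 for *Apln* and -0.037 for *Aplnr* between HET and WT. The cause was not tested. When 1 library was left out, the differences whose sign depended on a library ran, between MUT and HET, from -0.26 to 0.015 for *Gja4*, from -0.11 to 0.097 for *Sox7*, from -0.038 to 0.21 for *Sox17*, from -0.16 to 0.061 for *Sox18* and from -0.064 to 0.21 for *Cxcl12*. They ran, between MUT and WT, from -0.17 to 0.035 for *Gja4*, from -0.12 to 0.11 for *Sox7*, from -0.054 to 0.11 for *Sox18*, from -0.10 to 0.17 for *Cxcl12* and from -0.022 to 0.19 for *Nr2f2*. They ran, between HET and WT, from -0.064 to 0.22 for *Gja4*, from -0.10 to 0.098 for *Sox7*, from -0.11 to 0.14 for *Sox17*, from -0.035 to 0.21 for *Sox18*, from -0.11 to 0.039 for *Cxcl12*, from -0.019 to 0.084 for *Cxcr4*, from -0.15 to 0.057 for *Nr2f2*, from -0.082 to 0.068 for *Apln* and from -0.14 to 0.047 for *Aplnr*. Leaving out HET-2 turned *Gja4* in both comparisons with HET, MUT-2 turned *Cxcl12* and MUT-1 turned *Sox7* in both comparisons with MUT, MUT-1 also turned *Nr2f2* between MUT and WT, and WT-1 turned *Sox7*, *Cxcl12*, *Cxcr4*, *Nr2f2*, *Apln* and *Aplnr* between HET and WT. Read depth is unknown.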

Other observations

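Across the 9 libraries, log2(FPKM + 1) of the members was correlated pair by pair, as a description of libraries that differ also in depth and composition. Of the 45 pairs, 34 had a positive Pearson r, with a median of 0.22 and a range from -0.85 to 0.85. The highest r were those of *Gja4* with *Sox18* (0.85), of *Sox7* with *Nr2f2* (0.85), of *Cxcl12* with *Aplnr* (0.84) and of *Apln* with *Aplnr* (0.79). *Cxcr4* ran opposite to most of the others, with r of -0.85 with *Aplnr*, -0.78 with *Apln* and -0.63 with its own ligand *Cxcl12*, so that the ratio of *Cxcl12* to *Cxcr4* lay between 2.64 (MUT-3) and 4.48 (MUT-2) within 1 genotype. The mean of the pan-endothelial markers had an r of 0.88 with *Sox7*, 0.79 with *Nr2f2* and 0.78 with *Aplnr*, of 0.13 with *Gja5* and of -0.71 with *Cxcr4*. The rough depth had an r of -0.71 with *Cxcr4* and of 0.59 with both *Aplnr* and *Cxcl12*. The highest r of *Gja5* with another member was 0.37, with *Cxcl12*.

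Among 12915 genes averaging 1 FPKM or more, the gene with the highest r over the 9 libraries was *Pnpla2* for *Gja4* (0.96), *Xpnpep2* for *Gja5* (0.91), *Lrch1* for *Sox7* (0.99), *Chst8* for *Sox17* (0.88), *Cxx1b* for *Sox18* (0.98), *Smim1* for *Cxcl12* (0.98), *2810468N07Rik* for *Cxcr4* (0.97), *Plekhm2* for *Nr2f2* (0.99), *D17Wsu92e* for *Apln* (0.98) and *Tm7sf3* for *Aplnr* (0.98). No endothelial marker of the lists was the closest gene of any member. These are the highest of 12915 values each and rest on the same 9 libraries.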
